A study of Mus musculus with 8 samples.

Results

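The genes of the platelet-derived growth factor (PDGF) system were examined in tumour cells sorted from mouse skin squamous cell carcinoma (SCC), a cancer of keratinocytes. The members are the receptor genes Pdgfra and Pdgfrb and the ligand genes Pdgfa, Pdgfb, Pdgfc and Pdgfd, found by gene symbol in the array's annotation. Of the 6 genes, 5 were measured, out of 17097 genes in all, and these 5 were covered by 8 probe sets. Pdgfa is named only, because the annotation used here lists no probe set for it.

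All 8 arrays came from tumours of K14-HPV16 mice, in which the keratin 14 promoter drives papillomavirus genes in basal keratinocytes. The tumours arose spontaneously or after treatment with DMBA and TPA, and the labels do not say which lineage had which origin. Pieces were grafted orthotopically and passed on in nude mice, so every group shares the transgene, the strain label FVB/C57/Bl6 and an immunodeficient mouse host. The host has its own fibroblasts and vessels, and mouse probes do not separate host from tumour RNA. After removal of blood and endothelial cells, those with CD34 and α6-integrin on their surface were sorted. Each lineage was sampled as well differentiated SCC (WD-SCC) and later as poorly differentiated SCC, which the sample titles write as PD/S-SCC. Lineage OT7 gave 2 arrays per stage, and lineages OT14 and OT15 gave 1 array per stage. The titles speak of biological replicates, but no label says that the paired OT7 arrays are of different tumours, and the p-values therefore reflect array-to-array spread that may be technical in part.

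PDGF ligands are secreted dimers that bring receptor tyrosine kinases together at the cell surface. The products of Pdgfa and Pdgfb bind once they leave the cell, whereas those of Pdgfc and Pdgfd carry a CUB domain that a protease has to remove first. In skin the receptors are best known on fibroblasts and on the pericytes of vessels, and keratinocytes and platelets are known sources of ligand.

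Values are log2 signals, and 1 probe set stands for each gene, that with the highest mean over the 8 arrays. Array medians lay between 3.66 and 3.77. The brightest of 15 bacterial control probe sets that have no target in the sample marks background on each array. It stood at 3.82 to 4.37 on the WD-SCC arrays and at 3.61 to 3.81 on the PD/S-SCC arrays, so a value near it was read against its own array. The sorting markers were above it on all arrays for Itga6, which encodes α6-integrin (WD-SCC 7.25 ± 1.31, PD/S-SCC 6.95 ± 0.73, mean ± SD, n = 4 each). Cd34 was above it on 7 arrays, and on the OT15 WD-SCC array it stood at 3.58, under a control of 4.37. Without this array the stage difference was 1.99 for Pdgfc (adjusted p = 0.0648), 0.53 for Pdgfra (0.203), 0.79 for Pdgfrb (0.310), -0.74 for Pdgfb (0.528) and -0.18 for Pdgfd (0.338), all by limma. The fit then rests on OT7 and OT14, as a lone array of a blocked lineage carries no stage difference.

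Among the ligands, Pdgfc rose from WD-SCC to PD/S-SCC and was the member gene that passed the test of stage. Its product, PDGF-CC, signals through the receptor encoded by Pdgfra. On the WD-SCC arrays Pdgfc stood at 2.90 and 3.08 in OT7, 2.85 in OT14 and 3.02 in OT15. On the PD/S-SCC arrays it stood at 5.86 and 5.34 in OT7, 3.61 in OT14 and 4.04 in OT15. All 4 PD/S-SCC values lay above all 4 WD-SCC values, and those of OT7 stood furthest from the rest. All WD-SCC values lay under their array's control, by 0.97 to 1.35, so the fold has a lower bound only. Against that background the mean of Pdgfc was at least 1.515-fold higher in PD/S-SCC. The bound sets the mean of the PD/S-SCC values against the mean of, per WD-SCC array, the higher of control and gene. It comes from OT7. In OT14 and OT15 the PD/S-SCC values of 3.61 and 4.04 lay under the WD-SCC controls of those lineages, 3.82 and 4.37. The measured means were 2.96 ± 0.10 and 4.71 ± 1.06 (SD, n = 4 each), and the log2 difference was 1.75 ± 0.38 (SE, 95% interval 0.80 to 2.70, adjusted p = 0.0402, limma with lineage as a block). Of all genes 12.6% passed this test, and 7.78% passed it as higher in PD/S-SCC.

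In OT7 both PD/S-SCC arrays exceeded their control for Pdgfc, by 2.14 and 1.71. The excess was 0.23 in OT15 and 0.0015 in OT14, which is background level. The call also depended on single arrays: the adjusted p was 0.0648 without either OT15 array, 0.0830 or 0.105 without the first or second OT7 WD-SCC array, and 0.0898 or 0.113 without the first or second OT7 PD/S-SCC array. It was 0.0494 without either OT14 array. Leaving out 1 array of OT14 or OT15 takes that lineage out of the stage effect. The second probe set of Pdgfc differed less, with values of 3.01 to 3.33 on the WD-SCC arrays. On the PD/S-SCC arrays it read 4.44 and 3.66 in OT7, 3.19 in OT14 and 3.43 in OT15. Its difference of 0.48 did not pass the test (adjusted p = 0.224, limma over every probe set), and it exceeded the control on the OT7 PD/S-SCC arrays alone.

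The 250 bases before the Pdgfc transcript start are shown because Pdgfc was the member gene that passed the test of stage. They come from RefSeq (build GRCm38.p6, plus strand, chr3:81036166-81036415). Capitals mark a CArG box, the motif that serum response factor recognises, whose first base lies 17 bases before the start.
Pdgfc upstream window: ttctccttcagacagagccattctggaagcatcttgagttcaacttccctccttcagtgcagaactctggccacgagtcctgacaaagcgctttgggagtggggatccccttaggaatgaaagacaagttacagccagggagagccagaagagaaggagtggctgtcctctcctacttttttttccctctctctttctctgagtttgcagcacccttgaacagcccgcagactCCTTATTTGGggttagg
The CArG box was searched after this sequence had been seen, so its presence is a description. On both strands, 1.47% of 32851 mouse windows of the same length hold one. Searched in the same way, the Pdgfc window held no AP-1 element (TGANTCA, in 6.75% of windows), no Sp1 element (GGGCGG, 32.7%), no CCAAT box (CCAAT, 33.9%), no TATA box (TATAAA, 12.4%) and no E-box of the Snail and Zeb type (CAGGTG, 17.2%). Its GC content of 50.8% stood beside a median of 52.4% over all windows. No factor binding was measured in this series.

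Pdgfb, whose product binds both receptors, was above the controls on all 8 arrays. Its WD-SCC values were 5.31 and 5.91 in OT7, 6.92 in OT14 and 5.69 in OT15. Its PD/S-SCC values were 6.41 and 5.13 in OT7, 4.37 in OT14 and 4.19 in OT15. OT14 and OT15 were lower in PD/S-SCC, whereas the OT7 arrays of the stages overlapped. The stage means were 5.96 ± 0.69 and 5.03 ± 1.01 (SD, n = 4 each), and the difference of -0.93 ± 0.57 (SE) did not pass the test (95% interval -2.33 to 0.47, adjusted p = 0.304, limma). With the first OT7 PD/S-SCC array left out, the stages no longer overlapped for Pdgfb and the difference was -1.41 (adjusted p = 0.143, limma). Without either OT14 array it was -0.40 (adjusted p = 0.638). The second Pdgfb probe set lay near the controls and above them on 1 WD-SCC and 2 PD/S-SCC arrays. Its values were 3.66 to 4.63 in WD-SCC and 3.36 to 4.14 in PD/S-SCC, a difference of -0.37 (adjusted p = 0.375, limma over every probe set).

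Pdgfd, the other CUB domain ligand, was under the controls on every array with both of its probe sets. It read 2.98 and 2.99 in OT7, 3.14 in OT14 and 3.17 in OT15 for WD-SCC. For PD/S-SCC it read 2.79 and 2.89 in OT7, 2.90 in OT14 and 2.89 in OT15. No level and no fold are given for it. The 4 PD/S-SCC readings lay below the 4 WD-SCC readings, on arrays whose controls were themselves lower in PD/S-SCC (4.11 ± 0.22 in WD-SCC, 3.69 ± 0.09 in PD/S-SCC, SD, n = 4 each). The part of the background in that order was not tested.

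Among the receptors, Pdgfrb, the receptor known from pericytes and fibroblasts, was above the controls on all 8 arrays. Its WD-SCC values were 6.88 and 5.87 in OT7, 5.0003 in OT14 and 6.30 in OT15. Its PD/S-SCC values were 6.74 and 7.92 in OT7, 5.46 in OT14 and 6.80 in OT15. The stages overlapped, and the OT14 array was the lowest of its stage in both. The means were 6.01 ± 0.79 and 6.73 ± 1.01 (SD, n = 4 each), and the difference of 0.72 ± 0.35 (SE) did not pass the test (95% interval -0.14 to 1.58, adjusted p = 0.216, limma). It was 0.43 without the second OT7 PD/S-SCC array, 0.47 without the second OT7 WD-SCC array and 0.41 under cyclic loess.

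Pdgfra, the receptor that binds PDGF-AA and PDGF-CC, stayed near background. On the WD-SCC arrays it stood at 3.65 and 3.84 in OT7, 3.04 in OT14 and 3.33 in OT15, under the control on each. On the PD/S-SCC arrays it stood at 4.01 and 3.96 in OT7, 4.15 in OT14 and 4.36 in OT15, above its own array's control by 0.29 to 0.55. The stages did not overlap, although every PD/S-SCC value lies under the highest WD-SCC control of 4.37. The means were 3.47 ± 0.35 and 4.12 ± 0.18 (SD, n = 4 each). The log2 difference was 0.66 ± 0.19 (SE, 95% interval 0.18 to 1.13) and did not pass the test (adjusted p = 0.0813, limma). Against the controls Pdgfra was at least 1.005-fold higher in PD/S-SCC, which is hardly any difference. The annotation gives Pdgfra this 1 probe set, and 15588 of the 45141 probe sets carry no gene name there.

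**Figure D1:**
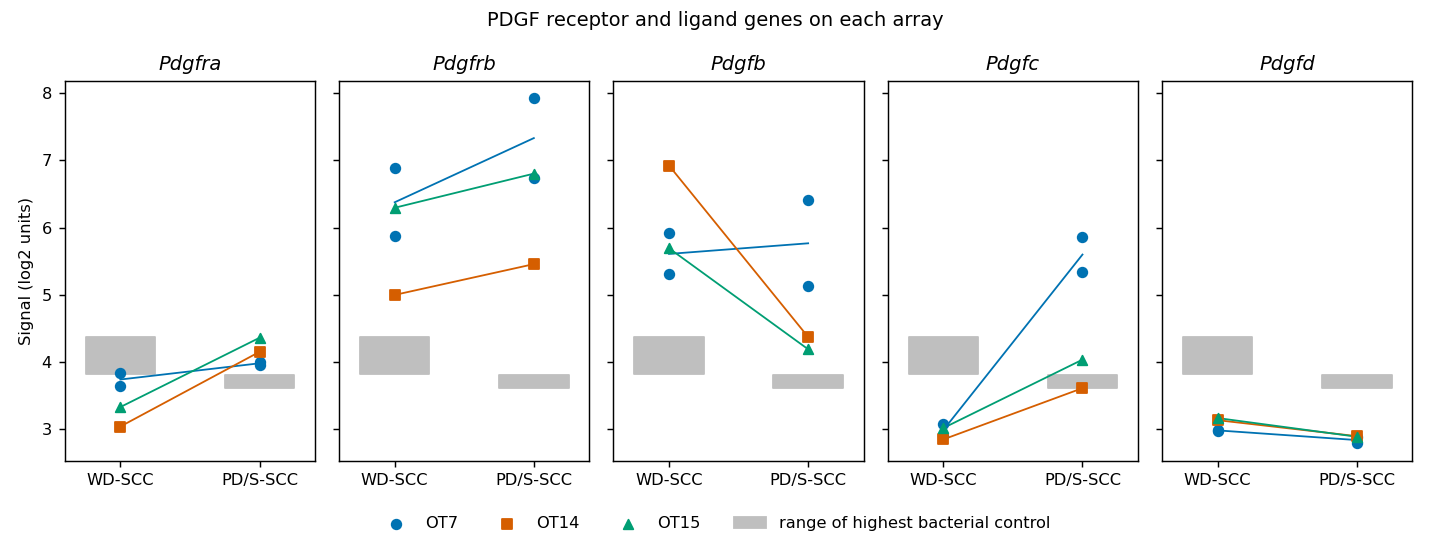
Log2 signal of Pdgfra, Pdgfrb, Pdgfb, Pdgfc and Pdgfd on each array by stage, with 1 point per array, colour and shape for the lineage, a line between the stage means of a lineage, and grey bars for the range of the brightest bacterial control. Pdgfc reaches 5.86 and 5.34 on the OT7 PD/S-SCC arrays and lies under the grey bar on all WD-SCC arrays, Pdgfrb and Pdgfb lie above the bar of their stage on every array, and Pdgfd lies under it throughout.

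An exact permutation test of the difference of stage means over the 70 splits of the arrays, two-sided and unadjusted, was made for the 5 genes. The splits exchange arrays across lineages, so this test takes no account of the lineage that the fit holds as a block. It gave 0.02857, the smallest p it can give, for Pdgfra, Pdgfc and Pdgfd, which are the genes whose stages did not overlap. For Pdgfd it ranks readings that were all under the controls. The exact permutation p was 0.171 for Pdgfb and 0.314 for Pdgfrb, which was higher in PD/S-SCC in each lineage. Without the OT15 WD-SCC array, over 35 splits, it was 0.05714 for Pdgfc, 0.02857 for Pdgfra and Pdgfd, 0.229 for Pdgfb and 0.343 for Pdgfrb. Complete separation of the stages was frequent in the series, at 24.1% of all genes in either direction and 10.8% with PD/S-SCC above.

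Within lineages, the Pdgfc difference was 2.61 ± 0.23 (SE, adjusted p = 0.0215, limma) in OT7, where 9.07% of all genes passed the same test. It was 0.76 in OT14 and 1.02 in OT15, each from 1 array per stage. Without the first or the second OT7 PD/S-SCC array the adjusted p in OT7 was 0.133 or 0.154, and no gene at all then passed in that lineage. Whether the stage difference varied from lineage to lineage was tested as well, and the test did not pass for Pdgfc (adjusted p = 0.297), nor for any other gene (0% of 17097 genes by limma, with 2043 at an unadjusted p under 0.05 and 14 genes called with a trended and robust prior). On simulated arrays this test found 25% of genes changed by 4 log2 units in OT14 alone, and 83% of those changed by 12. The absence of calls therefore does not show that the lineages agree.

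The other members varied between lineages as follows. The OT7 difference of Pdgfra was 0.24, against 1.11 for OT14 and 1.03 for OT15 (adjusted p = 0.386 for a difference between lineages, limma). With arrays scaled to their 75th percentile, the OT7 value of Pdgfra turned to -0.04 and its stages overlapped. Pdgfrb differed by 0.95, 0.46 and 0.51 in the same order, higher in PD/S-SCC in each lineage. Pdgfb differed by 0.16, -2.55 and -1.50 (adjusted p = 0.503 for a difference between lineages, limma), and its OT7 value turned to -0.13 under cyclic loess and -0.12 under 75th percentile scaling.

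**Figure D2:**
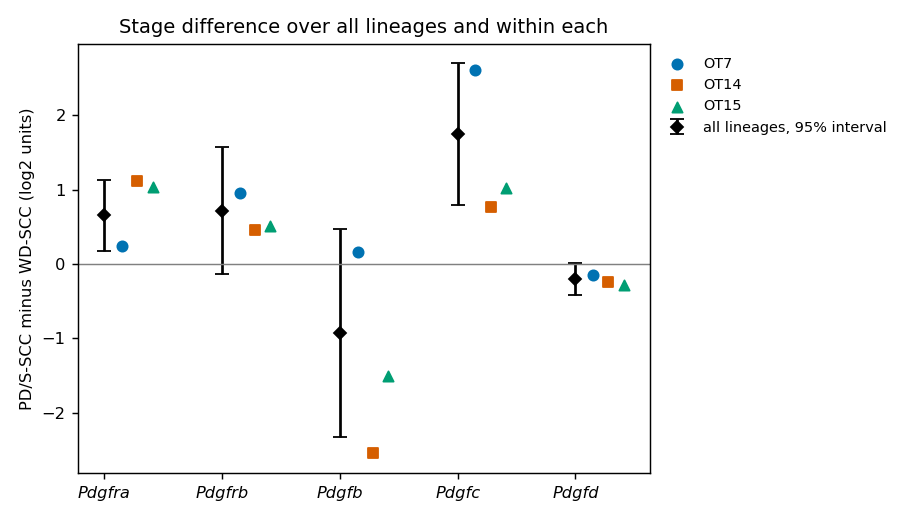
PD/S-SCC minus WD-SCC in log2 units for each member gene, with black diamonds for the fit over all lineages, bars for its 95% interval and coloured points for the difference within OT7, OT14 and OT15. The intervals of Pdgfra (0.18 to 1.13) and Pdgfc (0.80 to 2.70) lie above 0 before adjustment over all genes, Pdgfc is largest in OT7 at 2.61, and Pdgfb is lower in OT14 and OT15 but not in OT7.

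The genes that act around the ligands and receptors were taken in 5 lists, each read against 1331 genes higher and 823 lower in PD/S-SCC of 17097 and a median difference of -0.06 over all genes. With cyclic loess the split was 799 higher and 930 lower, and with 75th percentile scaling it was 1150 and 1205 with the median moved to -0.21. Of 10 genes for ligand activation and extracellular binding, none rose, 2 fell, and the median difference was -0.44. Both that fell encode proteases that can free the CUB domain ligands. Plat, which encodes tissue plasminogen activator and is known to activate PDGF-CC, fell from 9.51 ± 1.06 to 5.95 ± 0.48 (SD, n = 4 each, adjusted p = 0.00850, limma). In every lineage the Plat difference was negative, at -2.81 in OT7, -3.74 in OT14 and -4.89 in OT15. St14, which encodes matriptase, fell by 3.39 on the log2 scale (adjusted p = 0.0131). Plau, which encodes urokinase, stood at 8.39 ± 0.70 and 8.32 ± 0.39 (adjusted p = 0.911). Pcsk6, a proprotein convertase, differed by -0.47 (adjusted p = 0.102), and Lrp1, a co-receptor of PDGF signalling, by 0.36 (adjusted p = 0.109).

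In the list of related class III receptors and their ligands, none of 6 genes passed in either direction (limma), and the median difference was -0.16. Csf1r, the receptor of macrophage colony-stimulating factor, differed by -0.67 (adjusted p = 0.172), and Kit and Flt3 were under the controls on every array. Kitl, the ligand of Kit, had a difference of -0.36 for OT7, 1.93 for OT14 and 4.41 for OT15, and of 1.40 over all (adjusted p = 0.304). Without either OT15 array the Kitl difference was 0.40 (adjusted p = 0.678, limma).

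Of 26 genes measured among 33 listed that relay the receptors' signal, 3 rose, 1 fell, and the median difference was -0.08. Akt1, a kinase downstream of phosphoinositide 3-kinase, rose by 1.35 ± 0.16 (SE, adjusted p = 0.00797, limma). Pik3r1, which encodes the regulatory subunit that docks on the receptors, rose by 2.05 ± 0.36 (adjusted p = 0.0221), and Nras by 0.68 ± 0.13 (adjusted p = 0.0273). Nck2, an adaptor that binds the receptors, fell by 1.15 on the log2 scale (SE 0.10, adjusted p = 0.00416).

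Of 13 genes that attenuate the receptors, 2 rose, 1 fell, and the median difference was -0.09. Spry4, an inhibitor of Ras signalling, rose from 6.64 ± 0.36 to 8.99 ± 0.83 (SD, n = 4 each, adjusted p = 0.0110, limma). Ptpn2, a phosphatase that acts on the receptors, rose by 1.00 (adjusted p = 0.0356). Grb10, an adaptor that dampens receptor signalling, was at least 2.525-fold lower in PD/S-SCC, where it was under the controls (adjusted p = 0.00821, limma). Ptprj, another receptor phosphatase, differed by -0.92 (adjusted p = 0.0765).

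Of 15 measured genes that growth factors induce, 3 rose, 1 fell, and the median difference was 0.43. Egr1, an immediate early transcription factor, rose by 1.70 (adjusted p = 0.0406, limma), Klf10 by 1.69 (adjusted p = 0.0196) and Timp1, an inhibitor of metalloproteinases, by 1.59 (adjusted p = 0.0377). Junb, a subunit of AP-1, fell by 1.42 on the log2 scale (adjusted p = 0.0497). With cyclic loess the counts in this list were 1 and 1 and the median was 0.07.

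Of these 13 pathway genes, Plat, St14, Nck2, Akt1, Grb10 and Spry4 passed whichever single array was left out. The others lost the call without some arrays, with the highest adjusted p (limma) at 0.0709 for Pik3r1 and 0.105 for Timp1 without either OT15 array. It was 0.0899 for Nras, 0.106 for Ptpn2 and 0.0662 for Klf10 without the first OT7 PD/S-SCC array. It was 0.113 for Egr1 and 0.133 for Junb without either OT14 array. Without the OT15 WD-SCC array the counts were 2 lower for activation, 2 higher and 1 lower for relay, 1 and 1 for attenuation, and 2 and 0 for induced genes.

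**Figure D3:**
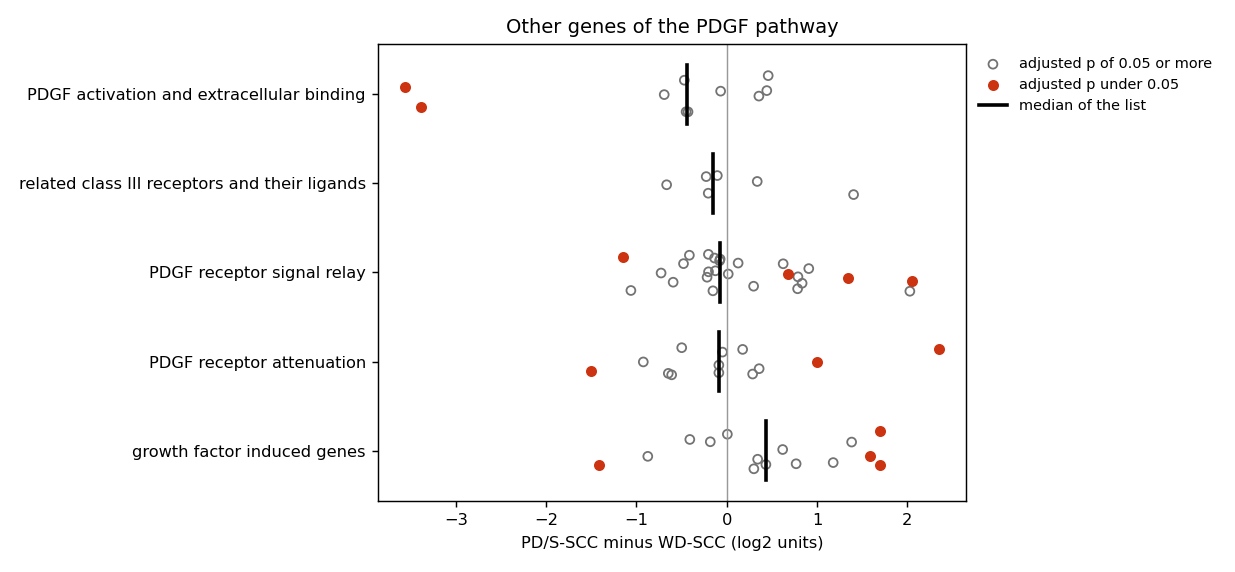
PD/S-SCC minus WD-SCC in log2 units for each measured gene of 5 pathway lists, with 1 circle per gene, filled where the adjusted p was under 0.05, and a black bar at the median of the list. The 2 filled circles furthest to the left are Plat and St14 among the activation genes, the medians lie between -0.44 and 0.43, and filled circles stand on both sides of 0 among relay, attenuation and induced genes.

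Of all genes 12.6% passed the test of stage in either direction. Among the markers the share was 6.67% for fibroblasts, 12.5% for pericytes and smooth muscle and 18.2% for haematopoietic cells. It was 25% for platelets, 30% for endothelium, 50% for adipocytes, 70% for keratinocytes and 0% for melanocytes and Schwann cells, in short lists. Markers of the cell types that carry PDGF receptors were present to different degrees. In bulk samples, fewer cells of a type and less RNA per cell cannot be told apart. Of 15 fibroblast markers, 8 were above the controls on every array. The mean over the 15 genes lay at 4.98 to 8.20 on the WD-SCC arrays and at 6.17 to 6.84 on the PD/S-SCC arrays. Their summed linear signal ran from 1587 to 13226 and from 3920 to 8430. Of the 15, none passed as higher and Thy1 fell, at a median difference of -0.19, and Fap and Pi16 were under the controls on every array. Col6a1 differed by 3.08 (adjusted p = 0.0776, limma), Prrx1 by 2.25 (0.0656) and Twist2 by 2.04 (0.0644), each higher in PD/S-SCC and short of the threshold. Other markers went the other way, also short of it. Dpt differed by -2.72 (adjusted p = 0.181, limma). In PD/S-SCC the mean of Mfap5 was at least 3.068-fold lower (0.144) and that of Lum at least 1.85-fold lower (0.327). Mfap5 was above the controls on 3 arrays and Lum on 1, all of WD-SCC, so the Lum bound rests on 1 array. With a trended and robust prior, or among the genes above the controls on at least 4 arrays, 3 fibroblast markers passed as higher. Without the first OT7 WD-SCC array, or without either OT14 array, 1 did. The median turned to 0.29 with the OT7 arrays averaged, and to 0.30 or 0.17 without the first OT7 WD-SCC or PD/S-SCC array, so the list has no settled direction. By mean over all 8 arrays the brightest were Pdpn (10.44 ± 0.92 and 10.15 ± 1.67), Col1a1 (9.34 ± 2.76 and 9.19 ± 0.91) and Dcn (9.23 ± 1.21 and 9.25 ± 1.42). The lowest fibroblast mean, 4.98, was that of the OT14 WD-SCC array, which also had the lowest Pdgfrb, 5.0003, and the lowest Pdgfra, 3.04. Other arrays did not follow this order. The OT14 PD/S-SCC array had the highest fibroblast mean of its stage, 6.84, and the lowest Pdgfrb of its stage, 5.46. The highest fibroblast mean, 8.20, was that of the first OT7 WD-SCC array. There Pdgfrb stood at 6.88, and Pdgfra stood at 3.65, under its control of 4.13. The part of fibroblast RNA in the Pdgfrb and Pdgfra values was not tested.

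Of 8 pericyte and smooth muscle markers none rose, Anpep fell (-2.14, adjusted p = 0.00856, limma), and the median difference was -0.35. Rgs5, a defining pericyte gene, was above the controls on 1 array, and Des and Kcnj8 on none. Acta2 differed by 1.86 (adjusted p = 0.0973) and Notch3 by -0.60 (adjusted p = 0.229). The summed signal of this list was 188 to 253 in WD-SCC and 140 to 450 in PD/S-SCC.

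Several markers of cells known to supply ligand fell in PD/S-SCC. Of 10 keratinocyte markers 7 fell and none rose, with a median difference of -3.64 and a summed signal of 6778 to 11985 in WD-SCC against 340 to 1076 in PD/S-SCC. Krt14, the keratin of basal keratinocytes, fell from 10.74 ± 0.38 to 5.73 ± 1.45 (SD, n = 4 each, adjusted p = 0.00764, limma). Perp differed by -3.51 (adjusted p = 0.0803) and Itgb4 by -0.45 (adjusted p = 0.684). Of 4 platelet markers Ppbp fell, being at least 67.57-fold lower in PD/S-SCC (adjusted p = 0.00763, limma). Itga2b stood at 6.47 ± 0.37 and 6.79 ± 0.54, Pf4 differed by -1.43 (adjusted p = 0.187), the median difference was -0.80, and the summed signal was 269 to 2675 and 109 to 193. Of 10 endothelial markers 3 fell and none passed as higher (median difference -1.32), with a summed signal of 197 to 1851 and 131 to 447. Tie1 was at least 12.2-fold lower (adjusted p = 0.0153, and up to 0.0549 without an OT15 or an OT14 array), Pecam1 differed by -2.66 (adjusted p = 0.0531) and Cdh5 by -2.54 (adjusted p = 0.177). Without the OT15 WD-SCC array 1 of the 10 passed as lower. The part of endothelial, platelet and keratinocyte RNA in the Pdgfb values was not tested.

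Of 11 haematopoietic markers 2 fell, Cd68 by 2.79 (adjusted p = 0.0141, limma) and Fcer1g by 2.74 on the log2 scale (adjusted p = 0.0195, and up to 0.0662 without an OT7 PD/S-SCC or an OT14 array). Their median difference was -0.42 and their summed signal 475 to 1110 and 158 to 250. Ptprc, Itgam and Adgre1, which define leukocytes and macrophages, were under the controls on every array, and Cd79a differed by -0.31 (adjusted p = 0.379). None of 4 melanocyte and Schwann cell markers passed in either direction (limma, median -0.28, summed signal 68.8 to 79.4 and 51.7 to 56.4). In that list Sox10 differed by -0.61 and Pmel by -0.27, and Mlana was under the controls. Of 2 adipocyte markers Fabp4 fell by 3.89 on the log2 scale (adjusted p = 0.00416), and Adipoq was under the controls (median -1.99, summed signal 97.8 to 707 and 15.8 to 51.5). Without the OT15 WD-SCC array, 7 keratinocyte, 1 platelet, 2 haematopoietic, 1 fibroblast, 1 pericyte and 1 adipocyte marker passed as lower and none of these lists held a marker past the threshold as higher.

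**Figure D4:**
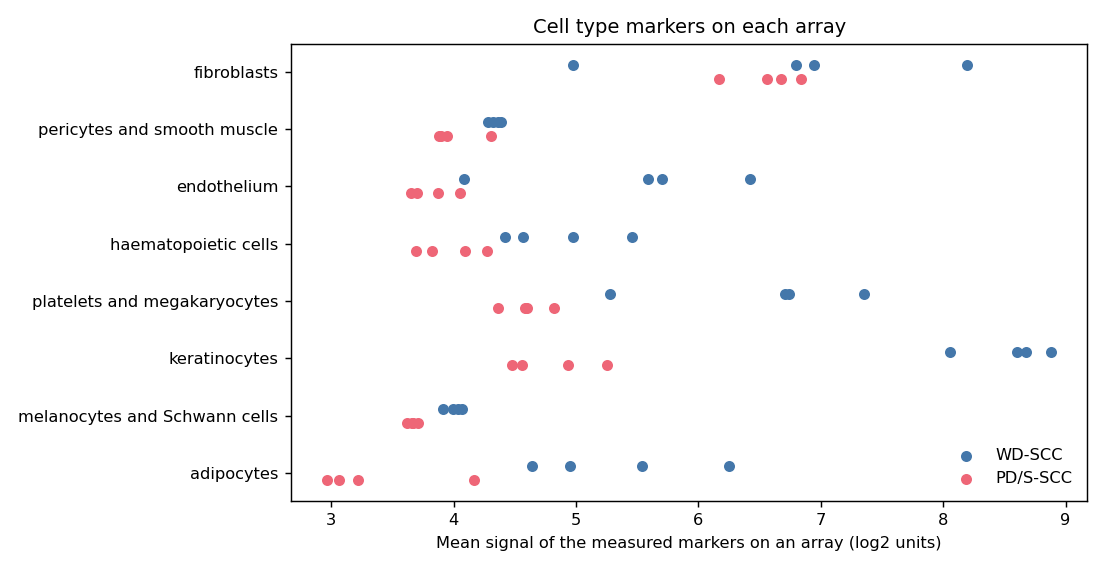
Mean log2 signal of the measured markers of 8 cell types on each array, with blue points for WD-SCC and red points for PD/S-SCC. Keratinocyte markers separate the stages most widely, the fibroblast markers overlap between 4.98 and 8.20 in WD-SCC and 6.17 and 6.84 in PD/S-SCC, and the pericyte markers lie near 4 on all arrays.

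For each member the genes with the most similar values over the 8 arrays were sought among 9878 genes above the controls on at least 4 arrays. These Pearson correlations describe 8 arrays that share lineages and fall into 2 stages, and no p is given. Without the OT15 WD-SCC array the 15 correlations lay between 0.930 and 0.996. The pairs were chosen with the remaining arrays in use, so high values there follow from the choice. Pdgfc ran closest to Lpcat2 (r = 0.994), a lipid acyltransferase gene, Rrp1b (0.984) and Fastkd2 (0.984). These genes were chosen for their similarity to Pdgfc on the same arrays, so a larger difference in OT7 follows from the choice. In OT7 Lpcat2 differed by 1.48, Rrp1b by 1.55 and Fastkd2 by 2.42. In OT14 and OT15 these genes differed by 0.44 to 1.15. Fastkd2 was under the controls on all WD-SCC arrays, as Pdgfc was. All 3 lost the call of stage without single arrays, with highest adjusted p (limma) of 0.123 for Lpcat2 and 0.132 for Rrp1b without the second OT7 PD/S-SCC array, and 0.114 for Fastkd2 without the first.

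Pdgfrb ran closest to Ino80 (r = 0.968), Rpap1 (0.968) and Tonsl (0.949), none of which passed the test of stage. Pdgfb ran closest to Artn (0.962), which encodes artemin, Pim3 (0.941), a kinase gene, and Ehd4 (0.926). Pdgfra ran closest to Tomm5 (0.979), Lgals1 (0.975), which encodes galectin-1, and Cks2 (0.970). Pdgfd ran closest to Cpne2 (0.988), Slc31a2 (0.985) and Lrg1 (0.979), but its own readings were under the controls throughout.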

How the data were processed

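Biotin-labelled cRNA of sorted cells was hybridised to 1-colour Affymetrix arrays, 1 per sample. The authors deposited 1 log2 value per probe set and array, and RMA of the affy package is named in the submitters' processing notes. RMA subtracts background, equalises quantiles across arrays and combines probes. No version and no chip definition is given in the sources used here. Quantile normalisation equalises the arrays before probes are combined, so all differences are relative. The deposited values still differed in distribution, with 75th percentiles of 4.85 to 5.05 on WD-SCC arrays and 4.92 to 5.21 on PD/S-SCC arrays.

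Gene names came from the platform annotation of 2016 (28898 with 1 gene, 551 with several, 15588 with none, 104 controls), with symbols updated through RefSeq by Entrez number (99.1% matched). Stage effects were fitted with limma 3.58.1 in R 4.3.3 (lmFit, then eBayes, two-sided), lineage being a fixed block. Effects within lineages used a cell-means model of lineage by stage, whose residual spread comes from OT7 alone. Adjusted p are Benjamini-Hochberg values over all genes, with a threshold of 0.05. Where a gene was at or under the highest bacterial control throughout 1 stage, a bound replaces the fold. The fits were tested on simulated data. There the stage fit found 50% of genes changed by 1 log2 unit and 71% of those changed by 2. A gene that did not pass may therefore still differ between the stages. Permutation tests used scipy 1.17.1 and plots matplotlib 3.10.9. Array number limits the precision.

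Members and lists were chosen with earlier results of these data known. Named genes are the members, up to 4 genes per pathway list with the smallest p, up to 3 per marker list with the highest mean, 3 most similar genes per member, and Itga6 and Cd34. Plau, Thy1, Col6a1, Prrx1, Twist2, Dpt, Mfap5, Lum, Fap, Pi16, Rgs5, Des, Kcnj8, Ptprc, Itgam and Adgre1 were named with their values or roles in view. Replicate numbers pair nothing across groups, and 1 OT7 WD-SCC title has none, so arrays were paired by lineage.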

Additional observations from a re-analysis of the deposited data

Results flagged for a closer look

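Each probe set of the members was tested for an array far from the others of its stage, over 16 groups of 4 arrays, of which chance flags about 1 in 20. The Pdgfd reading of 2.792 on the first OT7 PD/S-SCC array lay below the other PD/S-SCC readings of 2.89 to 2.90, all of them under the controls.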

How the results depend on the processing

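Genes past the stage threshold numbered 2154, 401 with the OT7 arrays averaged, and 886 to 1689 with 1 array left out. Pdgfc kept its sign in 18 of 18 alternatives and passed in 8. These alternatives are not independent. Changing the block or the prior, filtering genes or counting every probe set left the Pdgfc difference at 1.75, so its sign could not change. Leaving out either array of OT14, or either of OT15, gave the same fit. Pdgfc differed by 1.75 (adjusted p = 0.0513, limma) without a lineage block, 1.46 (0.167) with OT7 averaged and 1.11 (0.0598) as the mean of its probe sets. With 1 array left out it differed by 1.47 to 2.08. Pdgfra, Pdgfrb and Pdgfb passed in none of 18, with adjusted p (limma) of 0.0511 to 0.958, 0.119 to 0.513 and 0.143 to 0.638. Pdgfd, under the controls throughout, passed with a trended and robust prior (-0.20, adjusted p = 0.0445, limma), and its stages overlapped under cyclic loess. Permutation tests and similar genes without the OT15 WD-SCC array were added after seeing the data. Raising values to their array's control, chosen after seeing the data, gave 10511 genes, 0.60 for Pdgfc (adjusted p = 0.220), 0.01 for Pdgfra and -0.42 for Pdgfd (adjusted p = 0.00887). By construction the 4913 genes under the controls on every array then take the controls' own difference of -0.42. Differences between lineages numbered 14 with the trended and robust prior. OT7 calls, 1551 in all, numbered 0 to 1857 with 1 array left out, and 0 without either OT7 PD/S-SCC array. The stages did not overlap for 4123 genes, and for 6440 probe sets when every probe set was counted. Probe sets outnumber genes, so these counts do not compare directly. Of 60 other named genes 26 passed, and Fabp4, Nck2 and Ppbp passed in each alternative. All 26 kept 1 sign in every alternative, some of which could not change it. Where no construction is named, the cause was not tested. No paired analysis by replicate number was possible because the lineage and stage groups share fewer than 2 numbers with which to pair them. Signal over background limits Pdgfra, Pdgfd and, outside OT7, Pdgfc.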
